A study of Mus musculus with 4 samples.

Results

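The 9 genes described here encode transcription factors of the peripheral glial lineage, chosen by name among the 33456 genes listed in the deposited count tables: *Sox10*, *Sox2*, *Foxd3*, *Pou3f2*, *Pou3f1* (also called Oct6), *Egr2* (Krox20), *Zeb2*, *Sox9* and *Tfap2b*. The rule names genes and sets no threshold on a measured value. Of the 9 genes, 8 had at least 1 unique molecular identifier (UMI, the tag that marks 1 captured RNA molecule) in the cells analysed and 1, *Tfap2b*, had none. The study profiled dissociated dorsal root ganglia (DRG), the sensory ganglia beside the spinal cord, by droplet single cell RNA-seq of live-sorted cells in C57BL/6 mice aged 8 to 12 weeks. The methods give female animals, with the cells of 5 mice pooled for a batch. The 2 control libraries came from ganglia that the paper calls naïve and the labels uninjured. The 2 injury libraries came from animals 3 days after crush of the sciatic nerve, the nerve formed by axons of these ganglia. The labels name L4 ganglia, and the methods name L4 and L5. All animals carried the same strain background, and no transgene was used in either group. For surgery the methods give isoflurane, buprenorphine and charcoal-coated forceps. They do not name these for naïve animals, so the groups may differ in them as well as in the crush. The methods also give ganglia of the other side as uninjured controls where needed, without naming the experiments. Whole ganglia were dissociated, so that the axons and Schwann cells of the nerve at the crush site were not sampled.

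The satellite glial cells (SGC) that wrap the cell bodies of sensory neurons and the Schwann cells that wrap their axons both arise from the neural crest. *Sox10* is needed to specify and maintain this lineage. In Schwann cells it acts with *Pou3f1* and *Pou3f2* to switch on *Egr2*, and *Egr2* with *Sox10* then drives the myelin genes, whereas *Sox2* marks the immature, non-myelinating state and *Zeb2* is required for the step to myelination. *Foxd3* marks the neural crest and its early glial derivatives, *Sox9* the early crest and also cartilage and connective tissue precursors, and *Tfap2b* the crest and some early glial precursors.

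The 4 libraries held between 1294 and 2509 barcodes and between 5585909 and 11210875 UMIs. The limits of the study's methods kept 6095 of 6975 barcodes, 2642 control and 3453 injury cells with 25420687 UMIs. There were 20 barcode sequences that occurred in more than 1 library, and the 40 barcodes with them were kept as separate cells. Cells were assigned to 12 types by markers that exclude all 9 genes, and 4640 cells passed the gate of exactly 1 type. The gates held 1290 SGC-like cells (64 and 417 in control, 551 and 258 in injury replicates 1 and 2), 242 myelinating Schwann-like cells (100, 36, 86 and 20) and 55 glia-like cells with *Scn7a*, a sodium channel gene of non-myelinating glia (18, 2, 34 and 1). The summed CPM (UMIs of the genes per 1000000 UMIs of the same cells) of the 8 SGC markers ran from 11881 to 18942 in the SGC gate and from 65.2 to 221 in the Schwann gate. That of the 11 myelinating Schwann markers ran from 8169 to 9410 in the Schwann gate and from 52.0 to 63.0 in the SGC gate. The *Scn7a* gate was less distinct, with 3866 and 2600 CPM of its own 7 markers and 1424 and 1933 CPM of the SGC markers in its 2 libraries with 10 or more cells. The gates were set on these same markers, so these sums describe the gates and do not test them. The labels number only 1 library of each condition. Both unnumbered libraries, called replicate 1, were shallower per cell (medians of 2775 and 3110 UMIs, against 4054 and 4845), and their SGC-like cells also had more *Fos*, an immediate-early gene, as given below. Levels are compared between cell types and not between genes. After injury, a p sets a difference against the spread between libraries of a group. Between cell types, it sets a difference against the spread left once overall differences between libraries are taken out. In the main fit that spread is shared by all cell types fitted, and is not that of the 2 types compared alone.

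**Figure D1:**
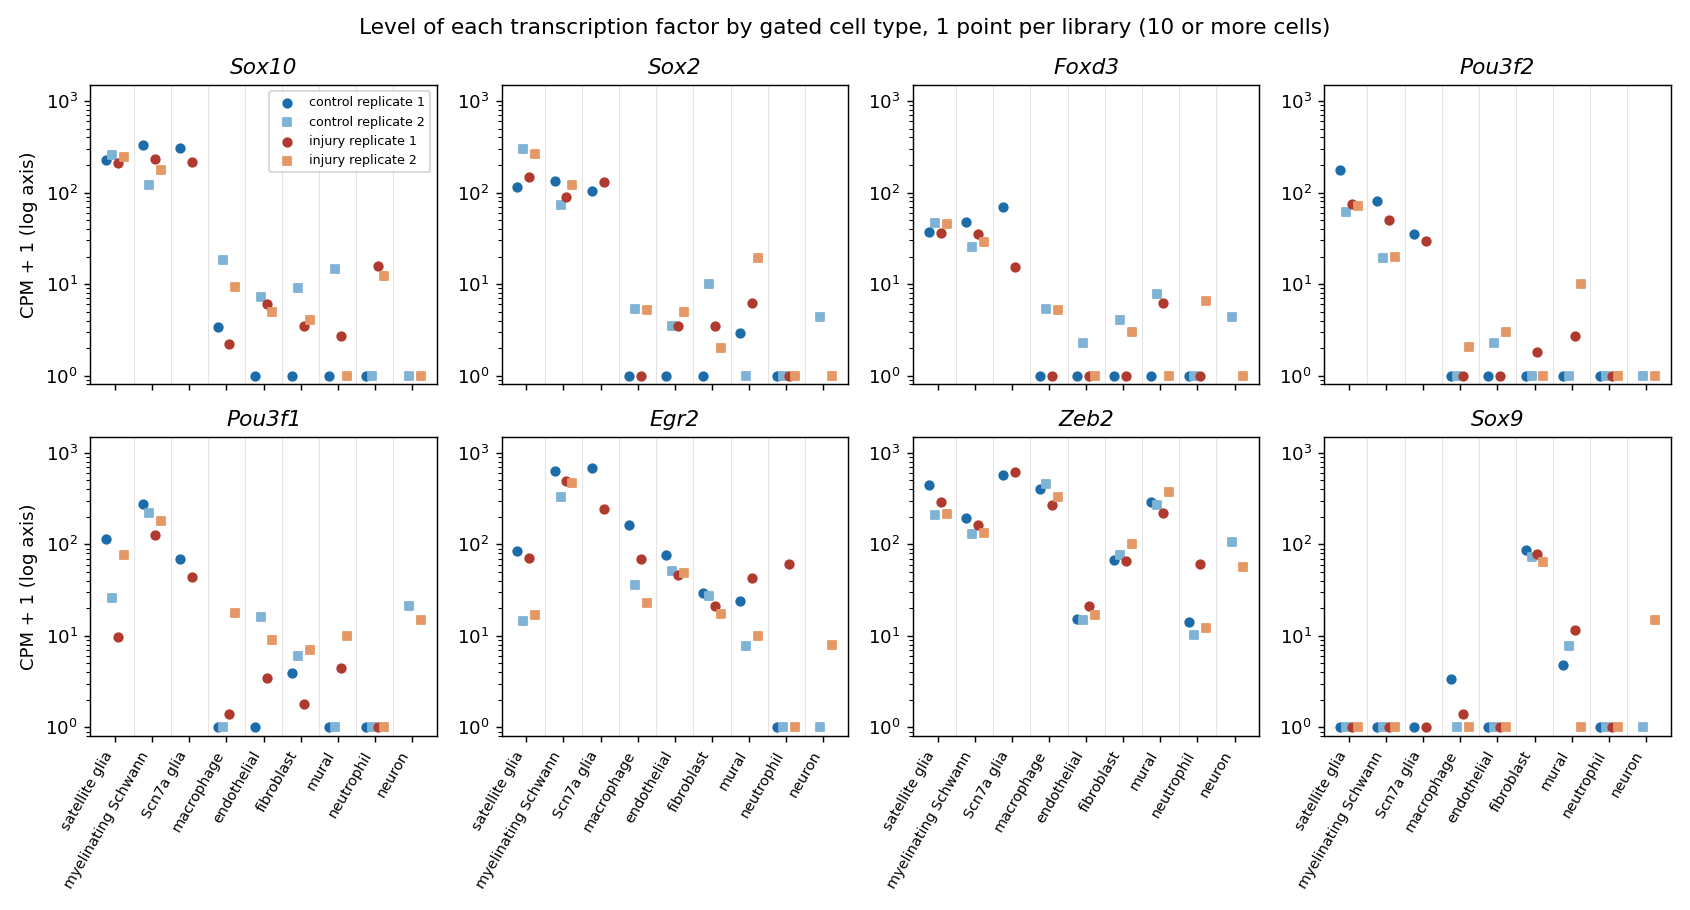
Level of the 8 detected transcription factors in each gated cell type, as CPM plus 1 on a log axis, with 1 point per library that held at least 10 cells of the type (circles are replicate 1, squares replicate 2, blue control and red or orange injury). Points at the lowest line are 0 UMIs. *Sox10*, *Sox2*, *Foxd3*, *Pou3f2* and *Pou3f1* are high in the glial types, *Egr2* and *Zeb2* also in other types, and *Sox9* in fibroblast-like cells.

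*Sox10* (chr15:79154908-79165240, minus strand, GENCODE vM21), the lineage factor, was found at a like level in all 3 glial types and near 0 elsewhere. In SGC-like cells it measured 223 and 258 CPM in control and 211 and 242 CPM in injury replicates 1 and 2, a mean of 234 ± 20.8 (SD, n = 4 libraries). In myelinating Schwann-like cells it measured 330, 121, 229 and 177 CPM in the same order (214 ± 88.6, SD, n = 4). The *Scn7a* glia-like cells had 305 and 213 CPM in the 2 libraries with 10 or more of them (259 ± 65.1, SD, n = 2). The 3 ranges overlapped, and none of the 3 pairs of glial types differed by the edgeR quasi-likelihood test. For SGC-like against Schwann-like cells the fitted log2 fold was 0.14 ± 0.25 (SE), with an interval of -0.36 to 0.63 (about 2 SE on either side, here and elsewhere) and an adjusted p of 0.790. *Sox10* was higher in the Schwann-like cells of both replicates 1 and in the SGC-like cells of both replicates 2. Among the 6 non-glial types with 10 or more cells in at least 2 libraries, the means ran from 0 CPM in neuron-like cells to 7.28 CPM in macrophage-like cells. Cells with a *Sox10* UMI made up 61.2% of the SGC-like gate (median depth 4074 UMIs) and 48.3% of the Schwann-like gate (2214 UMIs), and 1.55% of macrophage-like cells, which should lack the gene (median 4087 UMIs). With every cell thinned to 1000 UMIs the glial shares were 23.3% and 23.8%, without the gap seen before thinning. These shares pool the libraries. Most Schwann-like cells came from replicates 1, where *Sox10* was the higher in Schwann-like cells, and thinning does not even this out.

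*Foxd3* (chr4:99656299-99658622, plus strand), the neural crest factor, had the same distribution at a lower count of UMIs. It measured 36.4 and 45.2 CPM in control and 35.4 and 43.9 CPM in injury SGC-like cells (40.2 ± 5.05, SD, n = 4). In myelinating Schwann-like cells it measured 47.1, 24.3, 34.1 and 28.0 CPM (33.4 ± 10.0, SD, n = 4). These ranges overlapped, and the fitted log2 fold of 0.23 ± 0.40 (SE, adjusted p = 0.775, edgeR) had an interval of -0.55 to 1.01. The Schwann-like values rest on 10, 4, 7 and 3 UMIs. The 3 UMIs in *Scn7a* glia-like cells gave no usable level, and no non-glial type compared had a mean above 3.00 CPM. Over the 32 sums of a library and a cell type, *Foxd3* was the member most like *Sox10* (Pearson r = 0.95 of log2 CPM). These sums share libraries and depth, and no p is given.

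*Sox2* (chr3:34650405-34652461, plus strand), the factor of the immature state, was higher in SGC-like than in Schwann-like cells in the edgeR test, with a split between libraries. The values were 114 and 298 CPM in control and 149 and 263 CPM in injury replicates 1 and 2 (206 ± 88.4, SD, n = 4), so that both replicates 2 lay above both replicates 1. Myelinating Schwann-like cells had 132, 72.9, 87.7 and 121 CPM (103 ± 27.7, SD, n = 4). The level was higher in SGC-like than in Schwann-like cells in 3 of 4 libraries and lower in control replicate 1, the library with 64 SGC-like cells. The fitted log2 fold was 0.96 ± 0.28 (SE, adjusted p = 0.0115, edgeR), a 1.94-fold higher level. This call was lost in 4 of 12 alternatives: with DESeq2 (adjusted p = 0.310), and with edgeR without control replicate 2 (log2 fold 0.59, adjusted p = 0.233), without injury replicate 1 (0.97, adjusted p = 0.05005) or without injury replicate 2 (0.84, adjusted p = 0.0731). The *Scn7a* glia-like cells had 102 and 128 CPM, and no non-glial type had a mean above 6.30 CPM. The share of cells with a *Sox2* UMI was 54.8% in the SGC-like, 17.8% in the Schwann-like and 0.412% in the macrophage-like gate. Thinned to 1000 UMIs the shares were 17.1%, 11.3% and 0%. All these shares pool the libraries, and most Schwann-like cells came from replicates 1, where *Sox2* was the lower in SGC-like cells. The non-coding gene *Sox2ot*, annotated across *Sox2* on the same strand, was not analysed here, so that the part of its reads in the *Sox2* levels was not tested.

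*Pou3f2* (chr4:22482780-22488366, minus strand), a POU factor that shares functions with *Pou3f1* in Schwann cells, was also higher in SGC-like cells. It measured 177, 59.9, 73.9 and 70.3 CPM there (95.2 ± 54.7, SD, n = 4) and 80.1, 18.2, 48.7 and 18.6 CPM in myelinating Schwann-like cells (41.4 ± 29.5, SD, n = 4). The ranges overlapped because control replicate 1 was high in both types, and within each of the 4 libraries the SGC-like value was the higher, by 1.52 to 3.77 times. The fitted log2 fold was 1.11 ± 0.31 (SE, adjusted p = 0.00774, edgeR). The call was lost in 3 of 12 alternatives: with DESeq2 (adjusted p = 0.0603), and with edgeR without control replicate 2 (log2 fold 1.00, adjusted p = 0.0617) or without injury replicate 2 (0.99, adjusted p = 0.0503). The Schwann-like values of both replicates 2 rest on 3 and 2 UMIs. SGC-like cells held 73.8% of its UMIs in kept cells, and the means of the non-glial types were at most 2.69 CPM. *Pou3f2* and *Sox2* were each among the 3 genes most like the other over the 32 sums (r = 0.95), together with *Dhh*, the gene of the secreted signal desert hedgehog (r = 0.95 with *Sox2* and 0.93 with *Pou3f2*).

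The bases before the annotated RefSeq start of *Sox2* and *Pou3f2*, which with *Zeb2* were the members called higher in SGC-like cells, and of 1 start of *Egr2*, the gene that differed most the other way, are shown for reference (assembly GRCm38.p6, the build named in the submitters' processing notes as mm10). They are the 250 bases at chr3:34649745-34649994 (plus strand), chr4:22488367-22488616 (minus strand) and chr10:67537619-67537868 (plus strand, before a start that lies within the annotated *Egr2* gene). Capitals mark a match to ACAAAG, a core bound by SOX factors, or to ATGCAAAT, the octamer bound by POU factors, each searched on both strands.
Sox2: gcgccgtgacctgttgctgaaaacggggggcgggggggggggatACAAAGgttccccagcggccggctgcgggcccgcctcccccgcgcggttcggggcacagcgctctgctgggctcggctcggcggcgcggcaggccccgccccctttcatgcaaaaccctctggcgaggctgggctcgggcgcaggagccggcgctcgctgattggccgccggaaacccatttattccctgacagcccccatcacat
Pou3f2: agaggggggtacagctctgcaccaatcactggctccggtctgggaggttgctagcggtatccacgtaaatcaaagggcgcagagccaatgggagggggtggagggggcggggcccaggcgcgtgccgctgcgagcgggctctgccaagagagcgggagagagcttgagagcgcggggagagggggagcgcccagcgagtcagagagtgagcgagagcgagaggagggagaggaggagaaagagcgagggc
Egr2: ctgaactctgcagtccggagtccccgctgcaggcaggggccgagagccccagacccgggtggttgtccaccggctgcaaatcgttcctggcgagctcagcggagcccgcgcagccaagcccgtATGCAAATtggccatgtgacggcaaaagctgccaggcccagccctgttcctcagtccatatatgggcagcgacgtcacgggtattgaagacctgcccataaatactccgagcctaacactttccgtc

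RefSeq listed 13 starts for 6 of the 9 genes. ACAAAG stood before 2 of the 13, 1 each of *Sox2* and *Zeb2*, and before 16.5% of all 32851 starts listed. ATGCAAAT stood before 3 of the 13, all *Egr2* starts that share most of these bases, and before 1.60% of all starts. CACCTG, a core bound by ZEB factors (17.2% of all starts), and GCGTGGGCG, bound by EGR factors (0.536%), stood before none of the 13. The 4 motifs did not overlap in the windows shown. A match is a run of letters and was not tested for binding.

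*Zeb2* (chr2:44983632-45117395, minus strand), a zinc-finger repressor, was present in glia and beyond them. SGC-like cells had 442 and 209 CPM in control and 288 and 216 CPM in injury replicates 1 and 2 (289 ± 108, SD, n = 4). Myelinating Schwann-like cells had 193, 128, 161 and 130 CPM (153 ± 30.7, SD, n = 4). All 4 SGC-like values lay above all 4 Schwann-like values. The fitted log2 fold of 0.87 ± 0.23 (SE, adjusted p = 0.00354, edgeR) was called in all 12 alternatives, between 0.73 and 0.93. The *Scn7a* glia-like cells had 577 and 611 CPM, above every other glial value. Schwann-like cells were lower than these (log2 fold -1.44 ± 0.33, SE, with an adjusted p of 0.00304 in edgeR), and SGC-like cells did not pass the test against them (-0.57 ± 0.30, SE, adjusted p = 0.367). Macrophage-like cells (397, 453, 267 and 332 CPM) and mural-like cells, the pericytes and smooth muscle of vessels (287, 271, 219 and 370 CPM), overlapped the range of SGC-like cells. Against the mean log level of the other non-glial types, *Zeb2* was higher in macrophage-like cells (log2 fold 3.00 ± 0.17, SE, with an adjusted p of 2.36e-20 in edgeR). Mural-like cells are among those types, overlapped macrophage-like cells and had the higher value in injury replicate 2. Fibroblast-like cells had a mean of 76.8 ± 16.0 CPM and endothelial-like cells 16.0 ± 2.84 CPM (SD, n = 4 each). The antisense gene *Zeb2os* (chr2:45110707-45114087, plus strand) lies within *Zeb2*. It had 1069 UMIs in all barcodes against 6219 of *Zeb2*, with a level of 131 CPM in macrophage-like cells, 26.9 CPM in SGC-like cells and 7.25 CPM in Schwann-like cells. Where the counting did not use strand, reads of these genes cannot be told apart.

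*Pou3f1* (chr4:124656807-124660655, plus strand), the factor of Schwann cells about to myelinate, was lower in SGC-like than in myelinating Schwann-like cells. Schwann-like cells had 273 and 219 CPM in control and 127 and 177 CPM in injury libraries (199 ± 62.2, SD, n = 4). SGC-like cells had 114, 24.9, 8.62 and 74.7 CPM (55.6 ± 48.2, SD, n = 4). The groups did not overlap, and the fitted log2 fold was -2.38 ± 0.35 (SE, adjusted p = 1.06e-06, edgeR), past the threshold in all 12 alternatives. The *Scn7a* glia-like level was 67.8 and 42.6 CPM, from 2 and 3 UMIs. The means of the non-glial types ran from 0 to 6.40 CPM, apart from neuron-like cells at 17.3 CPM from 8 UMIs.

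In SGC-like cells *Pou3f1* was held by few cells. Of 1290 SGC-like cells 1225 had no UMI of it, 40 had 1, 12 had 2 and 13 had 3 or more. These 13 cells held 66.7% of the 192 UMIs. In injury replicate 2 the highest cell held 44 of 102 UMIs (among 8778 UMIs of all genes in that cell) and the next 20. Without that cell the level of the library was 42.8 instead of 74.7 CPM. In injury replicate 1, with 551 SGC-like cells, no cell had more than 2. Schwann-like cells spread it more evenly, with 74 of 242 cells positive, at most 10 UMIs in a cell and 45.3% of UMIs in the 13 cells with 3 or more. The 13 SGC-like cells with 3 or more had the SGC marker list at 3277 CPM, against 17551 CPM in those with no UMI. Their myelinating Schwann list was at 379 CPM, against 57.1 CPM, and at 8576 CPM in Schwann-like cells. Their median depth was 3886 UMIs, against 4108. The 13 cells were picked by this gene, so these values are a description without a test.

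**Figure D2:**
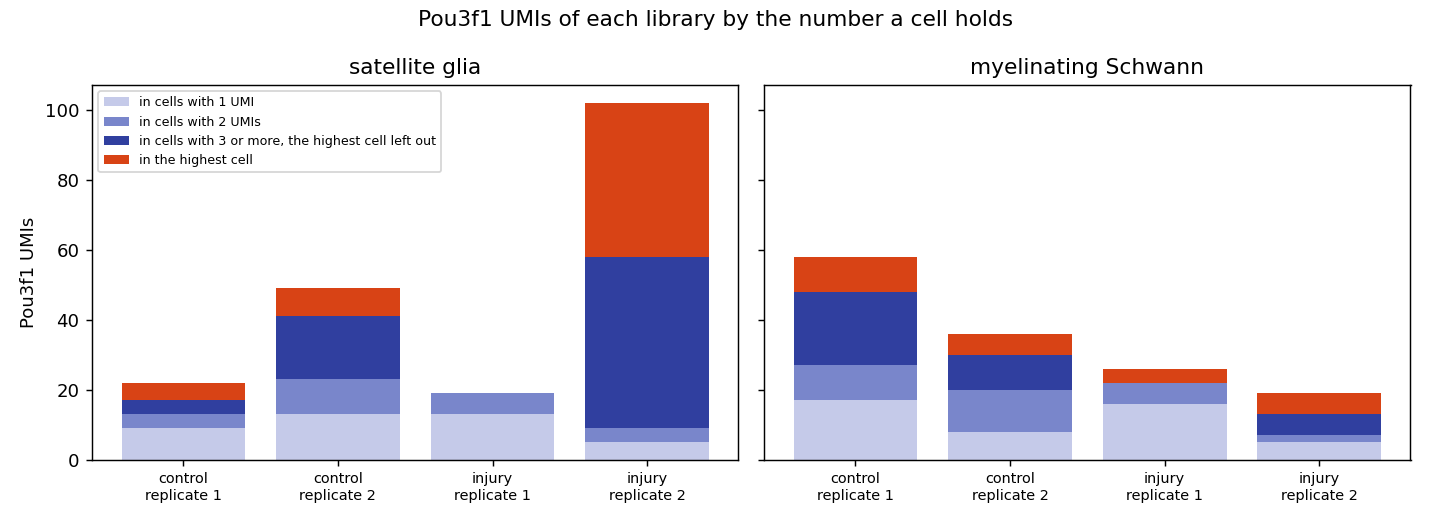
*Pou3f1* UMIs of each library in SGC-like cells (left) and myelinating Schwann-like cells (right), stacked by how many UMIs a cell held. The orange part is the highest cell of a library, 44 of 102 UMIs in the SGC-like cells of injury replicate 2.

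*Egr2* (chr10:67535475-67542188, plus strand), the switch to myelination, had the largest difference of the 8 members between SGC-like and Schwann-like cells. Myelinating Schwann-like cells had 631, 328, 492 and 466 CPM (479 ± 124, SD, n = 4), and SGC-like cells had 83.2, 13.7, 70.7 and 16.1 CPM (45.9 ± 36.2, SD, n = 4). No library overlapped, and the fitted log2 fold was -3.52 ± 0.31 (SE, adjusted p = 1.50e-12, edgeR), between -4.15 and -3.26 in the 12 alternatives. The *Scn7a* glia-like cells had 678 and 242 CPM, from 20 and 17 UMIs, above SGC-like cells in both libraries. A single cell held 10 of the 20 UMIs, and the level of control replicate 1 without it was 358 CPM. SGC-like cells were lower in the test (log2 fold -2.26 ± 0.54, SE, adjusted p = 0.00626, edgeR). *Egr2* was detected in 60.3% of Schwann-like, 29.1% of *Scn7a* glia-like and 11.5% of SGC-like cells, and thinned to 1000 UMIs in 36.3%, 25.9% and 3.95%. These shares pool the libraries. Most Schwann-like and *Scn7a* glia-like cells came from replicates 1, where *Egr2* was the higher in SGC-like and Schwann-like cells, and thinning does not even this out. *Egr2* was not particular to glia: macrophage-like cells had 160, 34.6, 68.0 and 21.8 CPM and endothelial-like cells 76.0, 50.4, 45.1 and 47.8 CPM, both overlapping the SGC-like values. Against the mean log level of the other non-glial types, *Egr2* was higher in macrophage-like cells (log2 fold 2.42 ± 0.38, SE, with an adjusted p of 8.04e-07 in edgeR). That mean takes in neutrophil- and neuron-like cells, with 4 and 1 UMIs. Within both replicates 2 the endothelial-like value was higher than the macrophage-like one.

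In SGC-like cells *Egr2* moved with the replicate number and not with the condition. Both replicates 1 (83.2 and 70.7 CPM) lay above both replicates 2 (13.7 and 16.1 CPM). This split was not particular to *Egr2*. *Zeb2* and *Pou3f2* were also higher in both replicates 1 (means of 365 against 213 and 125 against 65.1 CPM). *Sox10*, *Sox2* and *Foxd3* were higher in both replicates 2 (250 against 217, 281 against 132 and 44.6 against 35.9 CPM), and *Pou3f1* overlapped. In Schwann-like cells *Sox10*, *Foxd3*, *Pou3f2* and *Zeb2* were higher in both replicates 1. The immediate-early gene *Fos* measured 4714 and 2455 CPM in SGC-like cells of control and injury replicate 1, and 1034 and 1212 CPM in replicate 2. *Egr1*, a paralog of *Egr2* and an immediate-early gene, measured 551 and 267 against 140 and 146 CPM. *Jun* measured 2900 and 1637 against 642 and 987 CPM. In macrophage-like cells both replicates 1 again had the higher *Egr2*, *Egr1*, *Fos* and *Jun*. In Schwann-like cells this held for *Egr2* (631 and 492 against 328 and 466 CPM), *Egr1* and *Jun*, whereas *Fos* overlapped between the numbers (9244 and 5640 against 4682 and 6075 CPM). The part of these genes, or of the depth per cell that moves with them, in the *Egr2* values was not tested.

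**Figure D3:**
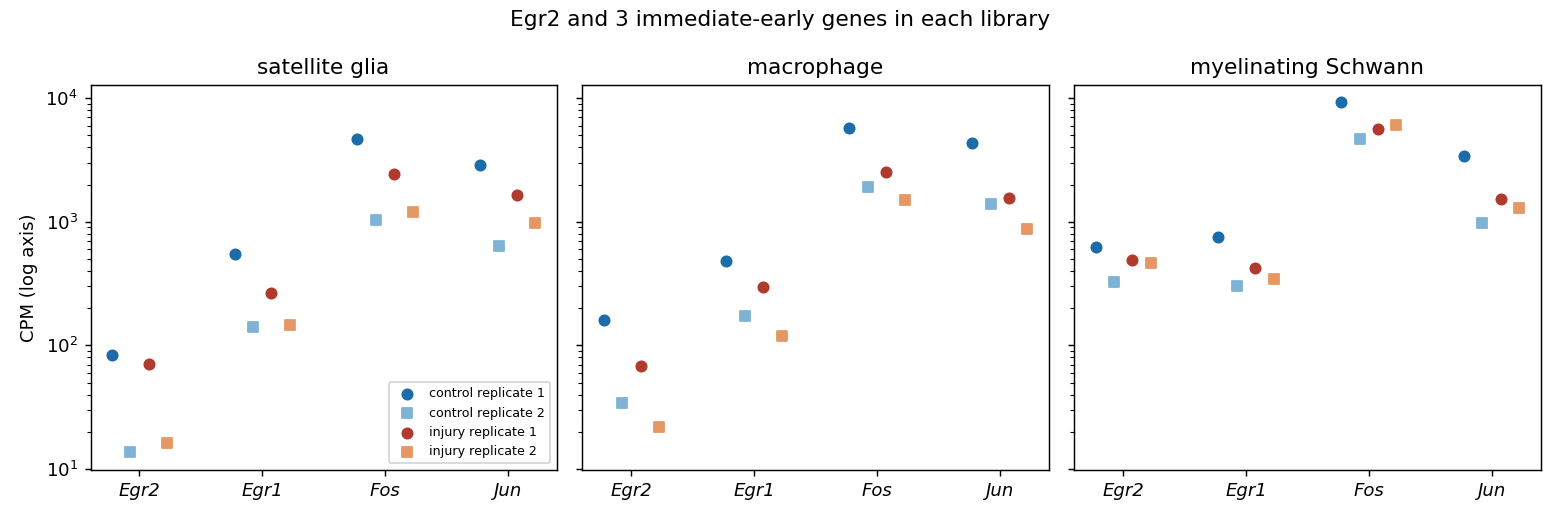
*Egr2* and the immediate-early genes *Egr1*, *Fos* and *Jun* in each library, in CPM on a log axis, for SGC-like, macrophage-like and myelinating Schwann-like cells (circles are replicate 1, squares replicate 2). In the SGC-like and macrophage-like panels each gene is higher in both circles than in both squares.

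*Sox9* (chr11:112782224-112787760, plus strand) had no UMI in the 1587 cells of the 3 glial types. A count of 0 allows 0.189% of those cells to carry a UMI and a level of 0.459 CPM (3 counts over the group). Of its 372 UMIs in kept cells, 84.9% were in fibroblast-like cells, at 85.6, 72.2, 76.8 and 64.0 CPM (74.7 ± 9.03, SD, n = 4). The fibroblast-like level was at least 143-fold higher than in SGC-like, 17.2-fold higher than in Schwann-like and 2.76-fold higher than in *Scn7a* glia-like cells, each set against 3 counts over that gate. The mural-like mean was 5.25 ± 4.44 CPM and the endothelial-like level 0. Against the other non-glial types, 2 of them at 0 in every library, *Sox9* was higher in fibroblast-like cells (adjusted p = 1.20e-15, edgeR). The genes most like it over the 32 sums were *Pax9*, *Srpx2* and *Dpt* (r = 0.95, 0.94 and 0.94). *Tfap2b* (chr1:19208914-19238576, plus strand) had no UMI in any of the 6975 barcodes, which allows up to 0.0801 CPM. These limits cover counting error only.

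Each glial type was set against the mean of the 6 non-glial types with enough cells, macrophage-, endothelial-, fibroblast-, mural-, neutrophil- and neuron-like. Of the 8 members tested, 7 were higher in the SGC-like gate and 7 in the Schwann-like gate, with *Sox9* not called in either. These shares compare with 30.6% of 10735 genes higher and 11% lower for SGC-like cells, and 18.4% higher and 6.04% lower for Schwann-like cells. The call of *Egr2* in SGC-like cells was marginal (adjusted p = 0.0473), since 6 instead of 7 members were higher in 9 of 11 alternatives, and it came at levels that overlapped those of macrophage- and endothelial-like cells. The *Zeb2* calls in both gates are also against a mean that takes in types with little of it. Its SGC-like levels overlapped those of macrophage- and mural-like cells. Its Schwann-like levels (128 to 193 CPM) lay below all of theirs (267 to 453 and 219 to 370 CPM). In *Scn7a* glia-like cells 5 members were higher, against 5.88% of genes (1.69% lower), and *Foxd3* and *Pou3f1* were not called. Macrophage-like cells were higher than the mean of the other non-glial types in 2 of 8 members (28.6% of genes, and 8.34% lower) and fibroblast-like cells in 1 of 8 (29.9% of genes, and 7.82% lower). Where a non-glial type is at 0 the fitted fold depends on the prior count, so for the glial types levels are given above in place of these folds.

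Between the glial types, SGC-like cells were higher than myelinating Schwann-like cells in 3 of 8 members (*Sox2*, *Pou3f2*, *Zeb2*) and lower in 2 (*Pou3f1*, *Egr2*), where 10.3% and 8.16% of all genes tested were called. The median log2 fold of the 8 was 0.18, and that of all genes 0.15. With DESeq2, 1 member was higher and 2 were lower. Against *Scn7a* glia-like cells, SGC-like cells were lower in 1 member (1.48% of genes lower, 2.78% higher) and Schwann-like cells in 1 (2.16% lower, 3.51% higher).

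**Figure D4:**
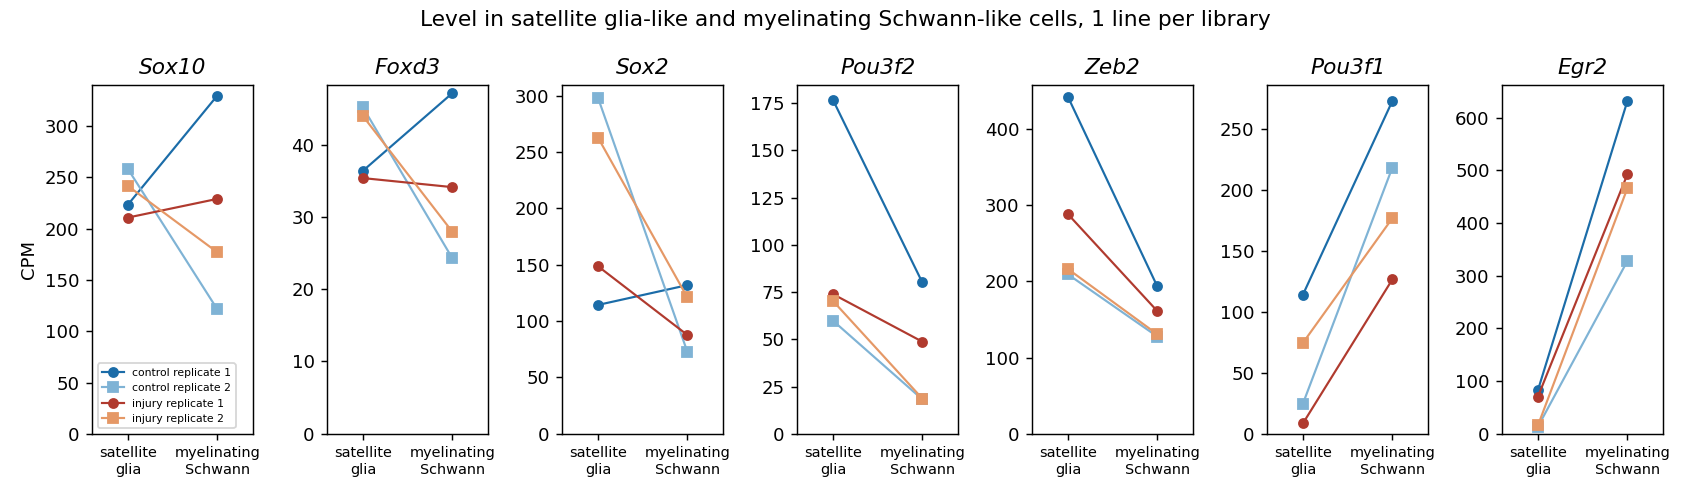
Level in SGC-like and myelinating Schwann-like cells in CPM, with 1 line per library and an axis that starts at 0 for each gene. The lines of *Zeb2* and *Pou3f2* fall and those of *Pou3f1* and *Egr2* rise in all 4 libraries, whereas *Sox10*, *Foxd3* and *Sox2* have lines of both directions.

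Many single SGC-like cells carried more than 1 of these factors. At least 1 of the 9 had a UMI in all but 71 of 1290 SGC-like cells, with 2.33 per cell on average, and in all but 22 of 242 Schwann-like cells, with 2.10 per cell. In 260 SGC-like cells just 1 was found. Outside the glia, macrophage-like cells had 0.936 per cell, and 220 of 970 had none. Most of this was *Zeb2* (70.4% of macrophage-like cells) and *Egr2* (19.6%), with every other member in at most 1.55%. *Zeb2* also counts toward the glial means (59.0% of SGC-like and 33.9% of Schwann-like cells). Fibroblast-like, mural-like and endothelial-like cells had 0.612, 0.552 and 0.295 per cell. *Sox10* and *Sox2* were found together in 455 SGC-like cells. Of the cells with a *Sox10* UMI 57.7% also had *Sox2*, against 50.3% of those without, and the cells with *Sox10* were the deeper (medians of 4349 and 3644 UMIs). *Egr2* went with *Sox10* in 10.3% of SGC-like cells with *Sox10* and in 13.4% of those without. In Schwann-like cells *Egr2* was found in 65.8% of cells with *Sox10* and 55.2% of those without. *Pou3f1* and *Egr2* were found together in 47 of 242 Schwann-like cells. Shares of this kind depend on depth, and no test was made over cells.

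Genes known to act with these factors were examined as 4 lists, in the comparison where 10.3% of all genes were higher in SGC-like cells and 8.16% lower. Of 14 known targets of SOX10 or EGR2, 9 were lower in SGC-like than in Schwann-like cells, 1 was higher and 4 did not pass. Among them were the myelin gene *Pmp22* (496 to 543 CPM in SGC-like cells, against 21226 to 36393 CPM) and *Fa2h*, an enzyme of myelin lipids (2.93 to 10.4 CPM, against 210 to 382 CPM). *Pmp2*, a myelin lipid carrier, had no UMI in SGC-like cells, against 56.5 to 997 CPM. The target that was higher in SGC-like cells was *Erbb3*, the neuregulin receptor (61.5 to 130 and 9.32 to 61.3 CPM, log2 fold 1.27 ± 0.36, SE, adjusted p = 0.00888, edgeR). The list had a median log2 fold of -1.71, against 0.15 for all genes. The Schwann gate itself required genes of myelinating cells, such as *Prx*, *Mag* and *Gjb1*, so that it favoured cells rich in other myelin genes. The part of this gate in the differences of the targets, and of *Egr2*, was not tested.

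Of 12 cofactors of EGR2 and regulators of Schwann cell differentiation, 1 was higher in SGC-like cells, the histone deacetylase *Hdac1* (log2 fold 0.86 ± 0.26, SE, adjusted p = 0.0133, edgeR), and 11 did not pass, a share near that of all genes. Of the 12 regulators of immature or repair Schwann cells 9 were tested. *Notch1*, a receptor that keeps glia immature, was higher in SGC-like cells (58.6 to 96.6 CPM against 4.71 to 14.6), as were *Etv5* and *Id4*, and *Fos* and *Atf3* were lower (log2 fold -1.62 ± 0.26 and -1.37 ± 0.40, SE). The ranges of both overlapped (*Fos* 1034 to 4714 against 4682 to 9244 CPM, *Atf3* 11.2 to 244 against 46.6 to 292 CPM). *Atf3* in SGC-like cells split by replicate number, with 244 and 114 CPM in replicates 1 and 11.2 and 13.9 CPM in replicates 2. Of 13 paralogs of the members 6 were tested. *Sox3*, a close relative of *Sox2*, was higher in SGC-like cells (25.9 to 38.1 CPM against 0 to 6.07) and *Egr1* was lower (140 to 551 against 304 to 754 CPM, log2 fold -0.82 ± 0.26, SE, adjusted p = 0.0212, edgeR). The median log2 folds of these 3 lists were 0.13, 0.34 and 0.06, against 0.15 for all genes. No gene of the 4 lists was called after injury in SGC-like or Schwann-like cells.

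The comparison of injury with control addressed whether these factors change in glia of the ganglion 3 days after crush of the nerve. None of the 7 members tested in SGC-like cells was called by edgeR, and none had an unadjusted p under 0.05 or was called by DESeq2. *Sox10* averaged 241 CPM in control and 226 CPM in injury, a log2 fold of -0.02 ± 0.26 (SE), with an interval of -0.53 to 0.48. *Foxd3* averaged 40.8 and 39.7 CPM (-0.07 ± 0.31, interval -0.67 to 0.53). *Zeb2* averaged 325 and 252 CPM (-0.18 ± 0.33, interval -0.82 to 0.46). These were the members with the smallest SE, and all 3 had overlapping groups.

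The other 4 members had larger SE in SGC-like cells. *Sox2* averaged 206 CPM in both groups (-0.05 ± 0.45, interval -0.92 to 0.82), with a gap between the 2 libraries of each group that was larger than the one between the groups. *Pou3f2* averaged 118 and 72.1 CPM (-0.35 ± 0.40, interval -1.14 to 0.43). *Egr2* averaged 48.4 and 43.4 CPM, and its fitted log2 fold of 0.72 ± 0.82 had an interval of -0.90 to 2.33 and the opposite sign to the means. *Pou3f1* averaged 69.6 and 41.7 CPM (-0.20 ± 0.93, interval -2.02 to 1.62). In none of the 7 were the control and injury libraries apart, and no gene of the 10335 tested in SGC-like cells was called (0%; 133 had an unadjusted p under 0.05, and DESeq2 called 1).

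In myelinating Schwann-like cells no member of 7 was called either, with log2 folds between -0.71 and 0.01 (0% of 4547 genes called, 88 with an unadjusted p under 0.05, 0 by DESeq2). *Pou3f1* had the lowest, with 273 and 219 CPM in control and 127 and 177 CPM in injury. These groups did not overlap, and the log2 fold of -0.71 ± 0.35 (SE) did not pass (adjusted p = 1.00, edgeR), on 36 to 58 UMIs per control and 19 to 26 per injury library. *Egr2* averaged 480 CPM in control and 479 CPM in injury Schwann-like cells. The difference of the injury effect between SGC-like and Schwann-like cells was tested as an interaction. None of 7 members was called, with interaction log2 values from -0.25 to 0.36, where 5 of 6024 genes (0.083%) were, and 0 by DESeq2.

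**Figure D5:**
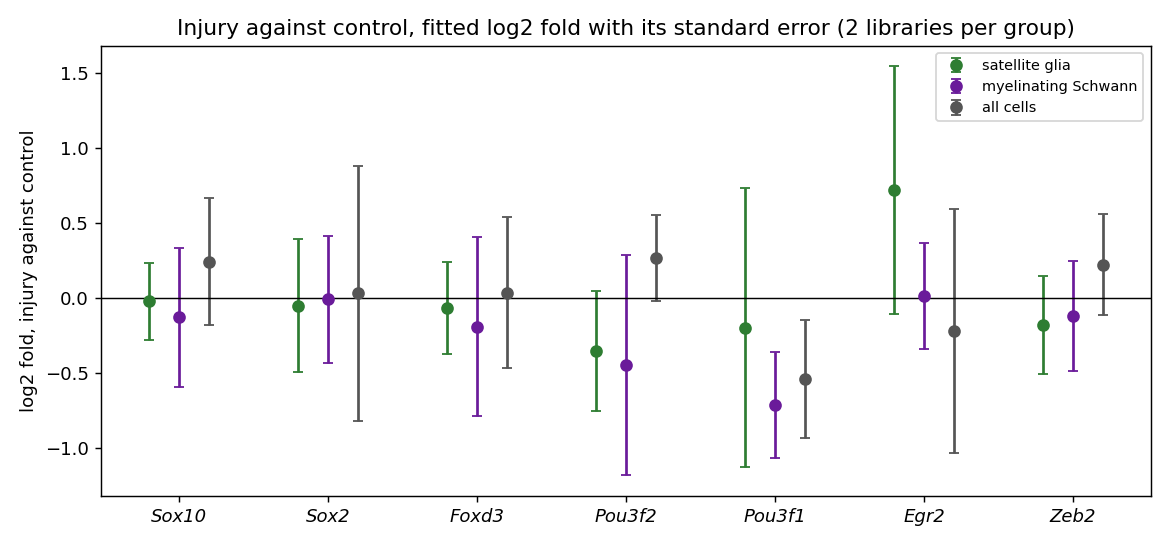
Fitted log2 fold of injury against control with its standard error, for the 7 glial members in SGC-like cells, in myelinating Schwann-like cells and in all kept cells summed (2 libraries per group). Every bar of *Sox10*, *Foxd3* and *Sox2* crosses 0, and that of *Pou3f1* in Schwann-like cells lies below it without passing the test after adjustment.

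Outside the glia, *Zeb2* in macrophage-like cells was 397 and 453 CPM in control and 267 and 332 CPM after injury. The groups did not overlap, and the log2 fold was -0.63 ± 0.26 (SE, adjusted p = 0.572, edgeR), below 0 in all 12 alternatives and called in none. With the settings used throughout, no other member had an unadjusted p under 0.05 in an injury comparison. *Egr2* in macrophage-like cells was 160 and 34.6 CPM in control and 68.0 and 21.8 CPM after injury, a log2 fold of -1.32 ± 0.65 (SE, adjusted p = 0.638, edgeR). It was called lower without the filter on low counts (-1.26), without control replicate 2 (-1.89), which has 8 *Egr2* UMIs in 65 macrophage-like cells, and without injury replicate 1 (-2.56), and it was 0.42 without control replicate 1. Macrophage-like cells gave 3 members to test, of which 0 were called (0% of 8499 genes, 717 with an unadjusted p under 0.05, 17 called by DESeq2). Endothelial-like (0% of 7757 genes), mural-like (0% of 6802) and fibroblast-like cells (0.0505% of 9894, 5 genes) gave 2, 2 and 4 members, none called. *Sox9* in fibroblast-like cells, with overlapping groups, had a log2 fold of -0.07 ± 0.26 (SE). *Egr2* was lower in both injury libraries than in both control libraries in endothelial-like (45.1 and 47.8 against 76.0 and 50.4 CPM) and fibroblast-like cells (20.4 and 16.2 against 28.5 and 26.1 CPM), with log2 folds of -0.25 ± 0.36 and -0.47 ± 0.34 (SE) that did not pass.

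In all kept cells summed, where fewer cells of a type and less RNA per cell cannot be told apart, 0 of 8 members were called (0% of 14307 genes, 208 with an unadjusted p under 0.05, 6 called by DESeq2). *Sox2* measured 17.7 and 120 CPM in control and 52.2 and 78.4 CPM in injury replicates 1 and 2, beside 64, 417, 551 and 258 SGC-like cells. *Sox9* measured 22.1 and 16.2 CPM in control and 11.4 and 12.6 CPM after injury, groups that did not overlap, beside 241, 245, 255 and 203 fibroblast-like among 1301, 1341, 2377 and 1076 cells. *Pou3f1* measured 33.3 and 37.6 CPM in control and 14.6 and 32.3 CPM after injury, also without overlap. The part of these cell numbers in the summed values was not tested.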

How the data were processed

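Droplet single cell libraries of mouse DRG, 2 control and 2 injury, were analysed. The authors deposited raw UMI counts per gene and barcode, made with Cell Ranger on the mm10 build, and used Partek afterwards. Whether counting used strand was not stated. Cells were kept at 600 to 15000 UMIs, 500 to 4000 genes and under 10% mitochondrial UMIs, the limits in the study's methods, which name reads. The cell count the study states lies between the barcodes deposited and the cells kept here. A cell entered a type when it had a UMI of at least 4 markers of that type (3 for B cells and *Scn7a* glia, which also needed *Scn7a*; 2 of 4 pan-glial markers as well for SGC and *Scn7a* glia). The gate limits were set after marker counts were seen. The 252 cells that passed more than 1 gate, among them possible doublets, were left out, no doublet caller was run, and 1203 cells passed no gate.

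UMIs were summed per library and type (10 or more cells) and tested with edgeR 4.0.16 in R 4.3.3 (TMM, filterByExpr with a minimum count of 5, quasi-likelihood test), with library as a term between types, and with Benjamini-Hochberg adjustment over all genes tested and a call at 0.05. DESeq2 1.42.0 was an alternative. The injury test compares 2 libraries with 2. The paper's legends give 2 independent experiments and do not say which libraries belong together. A control and an injury library of the same experiment may thus be paired, which the main injury fits do not use. Scripts were tested on simulated counts with the same dispersion for all genes, no effect of the replicate number and no changed genes of few UMIs. Such a test checks the code and not what these data could detect. Likeness used log2 CPM with a prior count of 2, without gate markers. The members and gene lists were chosen with earlier results of these data known. Named genes are all 9 members, up to 4 called genes per list and direction in SGC-like against Schwann-like cells by size of the log2 fold, the 3 genes most like a member, and overlapping genes, and 1 gene that this rule names is not reported here. *Fos*, *Jun* and *Egr1* beside *Egr2* were picked after its values were seen. Sequences are RefSeq promoters of GRCm38.p6, and gene positions are GENCODE vM21.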

Additional observations from a re-analysis of the deposited data

Results flagged for a closer look

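The members had UMIs in the 1203 kept cells that passed no gate, which enter no comparison between types. These cells held 319 UMIs of *Sox10* (82.6 CPM, 15.8% of its UMIs in kept cells), 181 of *Sox2*, 67 of *Foxd3*, 68 of *Pou3f2*, 197 of *Pou3f1* (28.3% of its UMIs), 337 of *Egr2* (87.3 CPM), 911 of *Zeb2* and 26 of *Sox9*. Each count was above the limit that a count of 0 allows (3 UMIs). No cell type was assigned to them, and where these UMIs come from was not tested.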

How the results depend on the processing

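The alternatives were another normalization (relative log expression), DESeq2, no filter on low counts, a minimum count of 10, all barcodes, a stricter gate, cells of more than 1 gate kept, fits of 2 types only, a fold threshold, a replicate block and each library left out. Of the counts of called members over these alternatives, 365 stayed within 1.5 times, 8 rose and 5 fell. The 365 take in counts that were 0 and stayed 0, and changes as small as 3 to 2 members. They do not measure how steady single calls are. A lone library left in a group was assumed to vary like the others. SGC-like cells were higher than Schwann-like cells in 1 member instead of 3 with DESeq2 (*Zeb2*), and in 1 to 3 with a library left out (1 without control replicate 2 and 1 without injury replicate 2), while 2 were lower in every alternative. A required log2 fold of 2 left 0 members higher there, and 0 lower in Schwann-like against *Scn7a* glia-like cells. Against *Scn7a* glia-like cells, 1 member was higher in SGC-like cells without the filter (*Pou3f2*), and 1 in Schwann-like cells without the filter (*Egr2*) or in the fit of 2 types (*Pou3f1*). With DESeq2, 1 member (*Sox9*) was lower in SGC-like than in non-glial cells. In macrophage-like cells after injury, 1 member was lower without the filter (*Egr2*), and with a library left out 0 to 1 were lower and 0 to 1 higher (*Pou3f1*, without injury replicate 1).

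Signs near 0 turned. For SGC-like against Schwann-like cells, *Sox10* was -0.050 with DESeq2 and ran from -0.11 to 0.48 with a library left out. For injury in SGC-like cells, all barcodes gave 0.0091 for *Sox10* and 0.017 for *Sox2*, the stricter gate 0.043 for *Foxd3*, and the replicate block 0.00091 for *Sox10*, 0.10 for *Sox2* and 0.026 for *Foxd3*. With a library left out the injury values ran from -0.18 to 0.19 for *Sox10*, -0.52 to 1.02 for *Sox2*, -0.92 to 1.72 for *Egr2*, -2.54 to 0.69 for *Pou3f1*, -1.12 to 0.28 for *Pou3f2*, -0.22 to 0.29 for *Foxd3* and -0.63 to 0.29 for *Zeb2*, and from -2.56 to 0.42 for *Egr2* in macrophage-like cells. None of the SGC-like values was called. The cause of these turns was not tested.

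Counts of genes called after injury changed by over 1.5 times. In SGC-like cells 0 became 15 with the replicate block and at most 12 otherwise, in Schwann-like cells 0 became at most 15, in macrophage-like cells 0 became 220 without the filter and 202 without injury replicate 1, in fibroblast-like cells 5 became 0 to 61, in endothelial-like, mural-like and all cells 0 became at most 19, 94 and 6, and 5 interaction calls became 0 to 13. The labels do not say what a replicate number marks. Deviations of same-numbered libraries correlated at 0.17 to 0.62, and the replicate block called no member, with values from -0.32 to 0.10 in SGC-like cells. A stricter gate, or leaving out either replicate 1, left too few *Scn7a* glia-like cells to fit. With 2 libraries per group and 64 SGC-like cells in control replicate 1, changes could be missed. The intervals given, which come from fits without the block, hold the changes that the values allow. They do not give the smallest change that would be called. The SE behind them is the size of the log2 fold divided by the root of its F statistic. Intervals of about 2 SE are narrow for so few libraries, so that somewhat larger changes are also possible. That of *Pou3f1* after injury in Schwann-like cells, -1.41 to -0.02, left out 0 at an unadjusted p of 0.0798 (edgeR).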
